A study of Capra hircus with 72 samples.

Results

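The retrotrapezoid nucleus (RTN) of goats exposed to moderate chronic hypercapnia was compared with the RTN of goats that breathed room air, across genes. The members were chosen by their labels: the 6 RTN libraries of moderate hypercapnia and the 6 RTN libraries of room air, 12 of the 72 libraries of the series. Moderate hypercapnia was 7 days in air with 6% CO2 followed by 7 days with 8% CO2, and the room air animals were sampled at 14 days. All animals were female goats (Capra hircus), and the labels give neither their ages nor any genotype. The study also sequenced mild hypercapnia (14 days at 6% CO2) and 3 regions besides the RTN: the nucleus of the solitary tract, called the NTS, the ventral respiratory column or VRC, and the medial prefrontal cortex or mPFC. The series description gives 6 animals per condition, and the animals are whole goats with no transgene named. Total RNA of dissected tissue was made into libraries with a low-input kit, so a library holds every cell type of the piece that was taken.

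The RTN is a small group of glutamatergic neurons on the ventral surface of the medulla, beside the facial motor nucleus, that raises breathing when CO2 or acid in the brain rises. In rodents these neurons express the peptides neuromedin B and PACAP, the vesicular glutamate transporter VGLUT2, and the proton sensors GPR4 and TASK-2. Nearby astrocytes and vessels also respond to CO2, among other routes through connexin hemichannels and ATP release.

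Genes of RTN neurons were measured in both groups, together with those of neighbouring nuclei. Levels compared between regions are given here as the authors' RPKM, counts scaled for gene length and library size. NMB, the neuromedin B gene, averaged 24.6 ± 8.64 RPKM in moderate and 27.8 ± 15.5 RPKM in room air RTN (SD, n = 6 each), against 11.9 ± 6.56 RPKM in room air VRC. SLC17A6, the gene of VGLUT2, averaged 6.40 ± 3.88 RPKM in moderate and 8.86 ± 3.46 RPKM in room air RTN. The cortical glutamate transporter gene SLC17A7 was low, at 1.75 ± 0.546 RPKM in moderate and 2.84 ± 1.37 RPKM in room air RTN. TPH2 of serotonin neurons and CHAT of motor neurons were also measured, at 8.31 ± 5.67 and 25.2 ± 13.6 RPKM in moderate RTN, against 12.9 ± 3.51 and 19.8 ± 4.61 RPKM in room air RTN. PNMT, which marks adrenaline neurons, was near 0 in both groups. TACR1 was not analysed here, as the table held no gene of that symbol.

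Marker levels of neighbouring nuclei varied widely among libraries, and every neuronal result below is limited by that spread. Whether the dissected pieces differed was not tested. In CPM, the per-million count scaled by TMM factors, the serotonergic markers TPH2, SLC6A4 and FEV summed to between 10.97 and 162 CPM in the moderate libraries and between 82.9 and 178 CPM in the room air libraries. The 4 motor neuron markers summed to between 104 and 1189 CPM in moderate libraries and between 391.5 and 876.5 CPM in room air libraries. Moderate replicate 5 stood apart: it lay at 56.97 on the first component of the 12 libraries, where the room air libraries lay between -14.1 and 15.4, and limma gave it a quality weight of 0.338, the lowest of the 12. Its catecholaminergic markers summed to 281 CPM, against a median of 29.8 CPM over the moderate libraries and 23.3 CPM over the room air libraries. Moderate replicate 6 had the next lowest weight, 0.632. Library totals ran from 13774272 to 31884742 counts in moderate and from 14741242 to 24374357 counts in room air RTN. In such bulk samples fewer cells of a type and less RNA per cell cannot be told apart.

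No gene passed the test for moderate hypercapnia against room air. Of 15343 genes tested with edgeR's quasi-likelihood test, 0 were called at a Benjamini-Hochberg adjusted p under 0.05 (0%), and the smallest adjusted p was 0.088. At an unadjusted p under 0.05 stood 1132 genes (7.38%), 579 higher in moderate (3.77%) and 553 lower (3.6%). In 63 genes (0.411%) the groups did not overlap: all 6 moderate libraries lay above all room air libraries in 40 genes (0.261%) and below them in 23 (0.15%). DESeq2 called 26 of 14740 genes (0.176%), 15 higher and 11 lower, while limma with quality weights called 0 and had 1532 genes at an unadjusted p under 0.05. Without moderate replicate 5, edgeR again called 0 genes, with 1271 at an unadjusted p under 0.05. Without moderate replicates 5 and 6 it called 0, and 1740 genes stood at an unadjusted p under 0.05. The p-values measure the spread between these libraries. In the paragraphs below p is edgeR's unadjusted p unless it is said to be adjusted, and a log2 fold change is moderate minus room air with its standard error (SE).

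**Figure D1:**
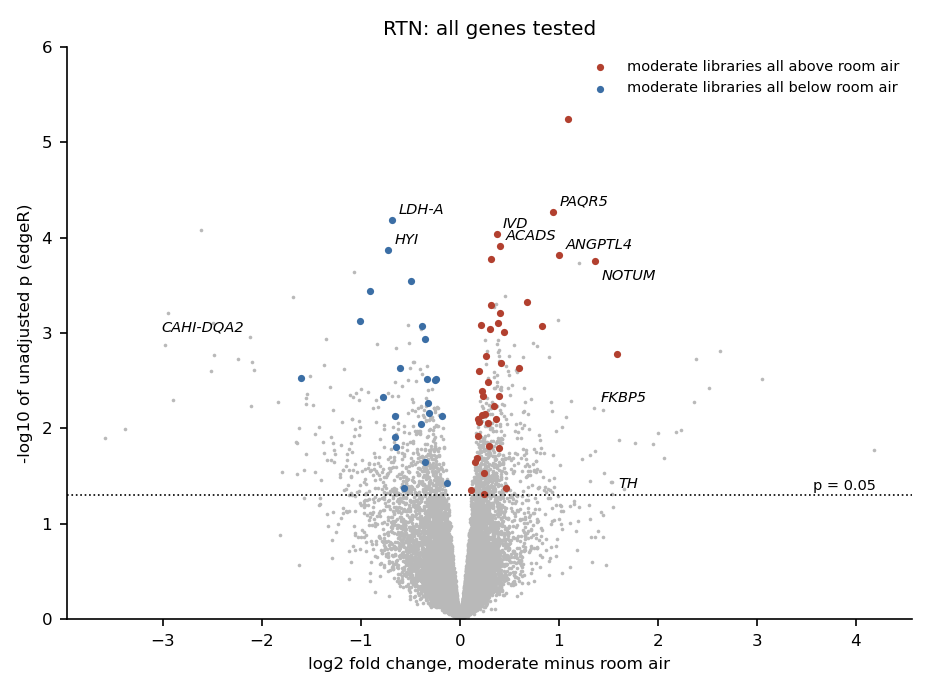
Every gene tested, by its log2 fold change (moderate minus room air, x axis) and the −log10 of its unadjusted edgeR p (y axis). Red points are the 40 genes whose moderate libraries all lay above the room air libraries and blue points the 23 whose moderate libraries all lay below; 0 genes passed the adjusted threshold.

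The genes of smallest p that were higher in moderate RTN were led by a steroid receptor gene, lipid and amino acid enzymes, and a secreted lipase inhibitor. The gene of smallest p of all, ENSCHIG00000019618 on chromosome 15, has no symbol in the table. It had 12.9, 16.7 and 28.1 CPM as lowest, median and highest of the moderate libraries, against 6.76, 7.96 and 11.4 CPM in room air (log2 fold change 1.09 ± 0.18, edgeR adjusted p = 0.088). It was called without moderate replicate 1 or without room air replicate 4, with edgeR adjusted p of 0.034 and 0.0496. PAQR5 (ENSCHIG00000016710, chromosome 10) encodes a membrane progestin receptor and was the gene with a symbol of smallest p. Its lowest, median and highest levels were 4.80, 5.82 and 9.64 CPM in moderate libraries and 2.89, 3.32 and 3.95 CPM in room air libraries. All moderate libraries lay above all room air libraries (log2 fold change 0.94 ± 0.18, edgeR adjusted p = 0.254, DESeq2 adjusted p = 0.0055).

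ANGPTL4 (ENSCHIG00000023643, chromosome 7) encodes a secreted inhibitor of lipoprotein lipase that fasting, glucocorticoids and hypoxia are known to induce. It had 11.3, 12.6 and 23.5 CPM in moderate libraries and 5.68, 8.01 and 8.49 CPM in room air libraries. The groups did not overlap (log2 fold change 1.00 ± 0.21, edgeR adjusted p = 0.254). NOTUM (ENSCHIG00000017267, chromosome 19) encodes a secreted enzyme that inactivates Wnt proteins, and it was low in both groups. It had 1.33, 2.29 and 3.29 CPM in moderate libraries and 0.57, 0.803 and 1.23 CPM in room air libraries, again without overlap (log2 fold change 1.37 ± 0.30). EHD2, which sits at the neck of caveolae, had 12.8, 22.0 and 31.9 CPM in moderate and 5.85, 10.1 and 14.2 CPM in room air RTN. Its groups overlapped at their edges (log2 fold change 1.20 ± 0.26).

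**Figure D2:**
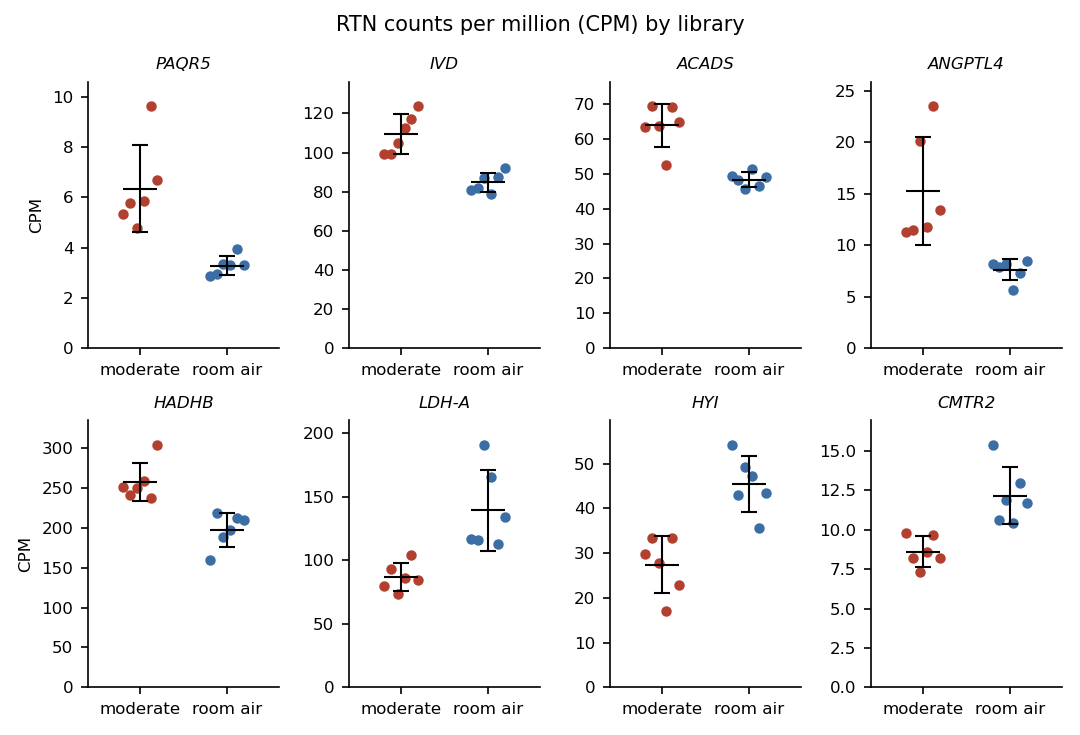
Level of 8 genes in each RTN library (CPM, y axis), moderate hypercapnia left and room air right; points are libraries, the long dash is the mean and the bars are 1 SD (n = 6 each). In all 8 genes the 6 moderate libraries lie on 1 side of the 6 room air libraries.

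The other genes of smallest p on the higher side had smaller differences in larger or steadier levels. PIGS, a subunit of the enzyme that attaches proteins to glycolipid anchors, averaged 85.6 ± 4.10 CPM in moderate and 69.1 ± 5.24 CPM in room air RTN (SD, n = 6 each). MRPL49, a protein of the mitochondrial ribosome, averaged 61.4 ± 1.90 CPM in moderate and 53.1 ± 1.82 CPM in room air RTN, with no overlap between the groups. ZNF250, a zinc finger protein, averaged 12.6 ± 1.21 CPM in moderate and 7.88 ± 2.01 CPM in room air RTN. HOGA1, a mitochondrial enzyme of hydroxyproline breakdown, averaged 55.3 ± 15.6 CPM in moderate and 27.8 ± 11.7 CPM in room air RTN. TECPR2, of the autophagy pathway, SMARCD2, a subunit of the SWI/SNF chromatin remodelling complexes, and XYLT2, which starts sugar chains on proteoglycans, had log2 fold changes of 0.45 ± 0.11, 0.37 ± 0.09 and 0.35 ± 0.08. PAQR5, NOTUM and ANGPTL4 kept log2 fold changes of 0.79, 1.24 and 0.84 without moderate replicate 5.

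On the lower side the gene with a symbol of smallest p was lactate dehydrogenase A, which converts pyruvate to lactate and is spelled LDH-A in the table (ENSCHIG00000018372, chromosome 29). It had 73.3, 85.5 and 104 CPM in moderate libraries and 113, 126 and 191 CPM in room air libraries. Every moderate library lay below every room air library (log2 fold change -0.68 ± 0.13, edgeR adjusted p = 0.254, DESeq2 adjusted p = 0.0056). HYI (ENSCHIG00000010866, chromosome 3), a putative hydroxypyruvate isomerase, had 17.2, 28.9 and 33.5 CPM in moderate libraries and 35.6, 45.3 and 54.2 CPM in room air libraries. These groups did not overlap either (log2 fold change -0.73 ± 0.15). Without moderate replicate 5 the log2 fold changes were -0.74 for LDH-A and -0.79 for HYI.

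Among the other genes of small p on the lower side, CMTR2, which methylates the cap of messenger RNAs, averaged 8.62 ± 0.956 CPM in moderate and 12.2 ± 1.83 CPM in room air RTN, and its groups did not overlap. MGA, a partner of MAX that represses transcription, averaged 19.0 ± 2.06 CPM in moderate and 24.7 ± 1.37 CPM in room air RTN, without overlap. ZC3H13, part of the complex that writes N6-methyladenosine, averaged 30.7 ± 2.70 CPM in moderate and 39.4 ± 4.56 CPM in room air RTN, without overlap. The chromatin protein SMCHD1, the homeobox transcription factor ZFHX3 and HEXIM1, an inhibitor of transcription elongation, had log2 fold changes of -0.39 ± 0.10, -0.52 ± 0.13 and -0.34 ± 0.10. HS3ST5, a heparan sulfate sulfotransferase, AP4S1, a subunit of a vesicle adaptor complex, and IQCD had -0.52 ± 0.14, -0.47 ± 0.13 and -0.51 ± 0.14. Edge overlap between the groups was seen in each of these 6 genes.

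Enzymes that burn fatty acids and branched-chain amino acids in mitochondria were nearly all slightly higher in moderate RTN. In this pathway acyl-CoA dehydrogenases and the trifunctional protein shorten fatty acids step by step, related enzymes break down leucine, isoleucine and valine, and electron transfer flavoprotein passes the electrons on. The list was made after IVD, ACADS and HADHB had been seen among the leading genes. Of its 38 genes 31 were tested, 30 were higher, with a median log2 fold change of 0.14, against 7661 of 15343 genes higher and a median of 0.00 over all genes tested. At an unadjusted p under 0.05 were 7 of the 31 (22.6%, against 7.38% of all genes), and in 4 the groups did not overlap (against 0.411% of all genes). These 4 were ETFA and the genes seen before the list was made, IVD, ACADS and HADHB, so that count is no independent result. The 1 gene on the lower side, DECR1, had a log2 fold change of -0.05 and stood at 0.02 without moderate replicate 5 and at 0.01 without room air replicate 2. Without IVD, ACADS and HADHB, 27 of 28 were higher, with a median of 0.14 and 4 at an unadjusted p under 0.05. Without moderate replicate 5, 30 of 31 were higher and 10 stood at an unadjusted p under 0.05. Without room air replicate 4 that count was 4, and without room air replicate 1 it was 5, with 29 of 31 higher in both and a median of 0.11 without replicate 1.

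IVD (ENSCHIG00000025464, chromosome 10), which oxidises isovaleryl-CoA in leucine breakdown, had 99.1, 109 and 124 CPM in moderate libraries and 79.1, 84.3 and 92.3 CPM in room air libraries (log2 fold change 0.37 ± 0.08). ACADS (ENSCHIG00000012727, chromosome 17), the short-chain acyl-CoA dehydrogenase, had 52.5, 64.1 and 69.4 CPM in moderate libraries and 45.6, 48.5 and 51.4 CPM in room air libraries (log2 fold change 0.40 ± 0.08). HADHB (ENSCHIG00000024735, chromosome 11), the beta subunit of the trifunctional protein, had 237, 250.3 and 304 CPM in moderate libraries and 159, 203 and 218 CPM in room air libraries (log2 fold change 0.38 ± 0.10). The groups did not overlap in any of the 3 genes, and their edgeR adjusted p was between 0.254 and 0.435. ETFA, a subunit of electron transfer flavoprotein that was chosen after its values were seen, had 92.5, 95.3 and 97.2 CPM in moderate libraries and 74.0, 83.3 and 89.6 CPM in room air libraries. That difference was small but again without overlap (log2 fold change 0.20 ± 0.06). ACADL, HADHA and ACAD8, also chosen after their values were seen, had log2 fold changes of 0.46 ± 0.20, 0.16 ± 0.07 and 0.19 ± 0.09. CPT1A, which controls the entry of fatty acids into mitochondria, overlapped widely, at 175 ± 57.0 CPM in moderate and 155 ± 35.4 CPM in room air RTN.

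Glycolysis, hypoxia and respiratory chain genes did not, as lists, share the position of LDH-A. LDH-A itself is left out of the counts below, because the hypoxia and glycolysis list spells it LDHA. Of 25 tested genes of hypoxia and glycolysis 16 were higher, with a median log2 fold change of 0.04, and 1 was at an unadjusted p under 0.05. That gene was HIF1A, the oxygen-regulated transcription factor, at 237 ± 41.2 CPM in moderate and 194 ± 28.9 CPM in room air RTN (log2 fold change 0.28 ± 0.12). VEGFA and SLC2A1, a glucose transporter, are classical targets of that factor and were named after their values were seen. Their log2 fold changes were -0.30 and 0.28, with edgeR adjusted p = 0.722 and adjusted p = 0.704. SLC2A1 reached 691 CPM in moderate replicate 5 and lay between 331 and 389 CPM in the other moderate libraries. Of 23 nuclear genes of oxidative phosphorylation 13 were higher, with a median of 0.03, and only SDHC, a subunit of succinate dehydrogenase, was at an unadjusted p under 0.05 (log2 fold change 0.17 ± 0.07).

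Glucocorticoid-responsive genes included several of the larger differences. The hormone's receptor acts on these genes directly, and FKBP5, PER1, KLF9 and PDK4 are widely used readouts of it. Of 17 tested genes 12 were higher, with a median log2 fold change of 0.12, and 5 were at an unadjusted p under 0.05 (29.4%, against 7.38% of all genes): ANGPTL4, FKBP5, PER1, PDK4 and KLF9, all higher. The list depended on single libraries: without moderate replicate 5 the median was 0.04, with 10 of 17 higher, and without moderate replicate 3 only 2 genes stood at an unadjusted p under 0.05. FKBP5 (ENSCHIG00000014746, chromosome 23), a chaperone partner of the receptor, had 19.97, 27.7 and 118 CPM in moderate libraries and 10.4, 15.3 and 25.7 CPM in room air libraries. One moderate library, replicate 3, held the 118 CPM, and the other 5 lay between 19.97 and 31.6 CPM (log2 fold change 1.36 ± 0.44). Without it the log2 fold change of FKBP5 was 0.68 ± 0.33, with an unadjusted edgeR p of 0.053. PDK4, a kinase that shuts pyruvate out of the citric acid cycle, had 50.0, 84.4 and 142 CPM in moderate libraries and 25.2, 56.1 and 72.8 CPM in room air libraries. Its groups overlapped widely (log2 fold change 0.77 ± 0.32), and without moderate replicate 5 the unadjusted edgeR p was 0.061.

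PER1, also a clock gene, had 19.7, 24.1 and 30.1 CPM in moderate libraries and 13.4, 18.7 and 21.9 CPM in room air libraries (log2 fold change 0.43 ± 0.16). KLF9, a transcription factor named after its values were seen, averaged 7.23 ± 2.15 CPM in moderate and 5.09 ± 0.935 CPM in room air RTN (log2 fold change 0.51 ± 0.24). ZBTB16, another target named in that way, had a log2 fold change of 0.40 ± 0.23 with edgeR adjusted p = 0.741. NR3C1, the receptor gene itself, had a log2 fold change of -0.24 with edgeR adjusted p = 0.697. The circadian clock list had 13 of 22 genes higher and a median of 0.03, which was -0.02 without moderate replicate 5. CRY2, a repressor of the clock, lay between 181 and 202 CPM in moderate libraries and between 145 and 163 CPM in room air libraries, without overlap (log2 fold change 0.28 ± 0.08). BHLHE41, another repressor, was lower (log2 fold change -0.55 ± 0.26), with the highest room air library at 46.9 CPM and the others no higher than 27.8 CPM.

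No marker of the list that joins RTN chemosensory and preBötzinger neurons was called, and most were somewhat lower in moderate RTN. Of 20 tested markers of RTN and preBötzinger neurons 3 were higher, with a median log2 fold change of -0.35. At an unadjusted p under 0.05 were 3 (15%, against 7.38% of all genes), all lower. The median was -0.14, with 5 of 20 higher, without room air replicate 5, and 1 gene was left at an unadjusted p under 0.05 without room air replicate 3. ADCYAP1, which encodes the peptide PACAP, had 13.2, 27.1 and 38.4 CPM in moderate libraries and 28.9, 39.8 and 86.0 CPM in room air libraries. A moderate library was lowest, yet the groups overlapped between 28.9 and 38.4 CPM (log2 fold change -0.83 ± 0.27, edgeR adjusted p = 0.558). LMX1B, of serotonin neurons, and CDH9, a cadherin of preBötzinger neurons, had log2 fold changes of -1.06 ± 0.43 and -0.57 ± 0.27 at low levels. The defining genes of the RTN spread widely within both groups and stood on both sides. SLC17A6 had 12.7, 19.8 and 49.9 CPM in moderate libraries and 23.9, 28.8 and 57.0 CPM in room air libraries, and its log2 fold change was -0.45 ± 0.40. NMB had -0.15 ± 0.38, GPR4 0.16 ± 0.22 and KCNK5, the gene of TASK-2, -0.33 ± 0.34. GAL, the gene of galanin, was on the higher side, at 10.2 ± 7.51 CPM in moderate and 5.07 ± 3.25 CPM in room air RTN (log2 fold change 1.02 ± 0.52, edgeR adjusted p = 0.698). Without moderate replicates 5 and 6 the log2 fold changes of NMB and GPR4 changed sign, to 0.08 and -0.18. GPR4 also stood at -0.06 without moderate replicate 5, and NMB at 0.19 without room air replicate 5.

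**Figure D3:**
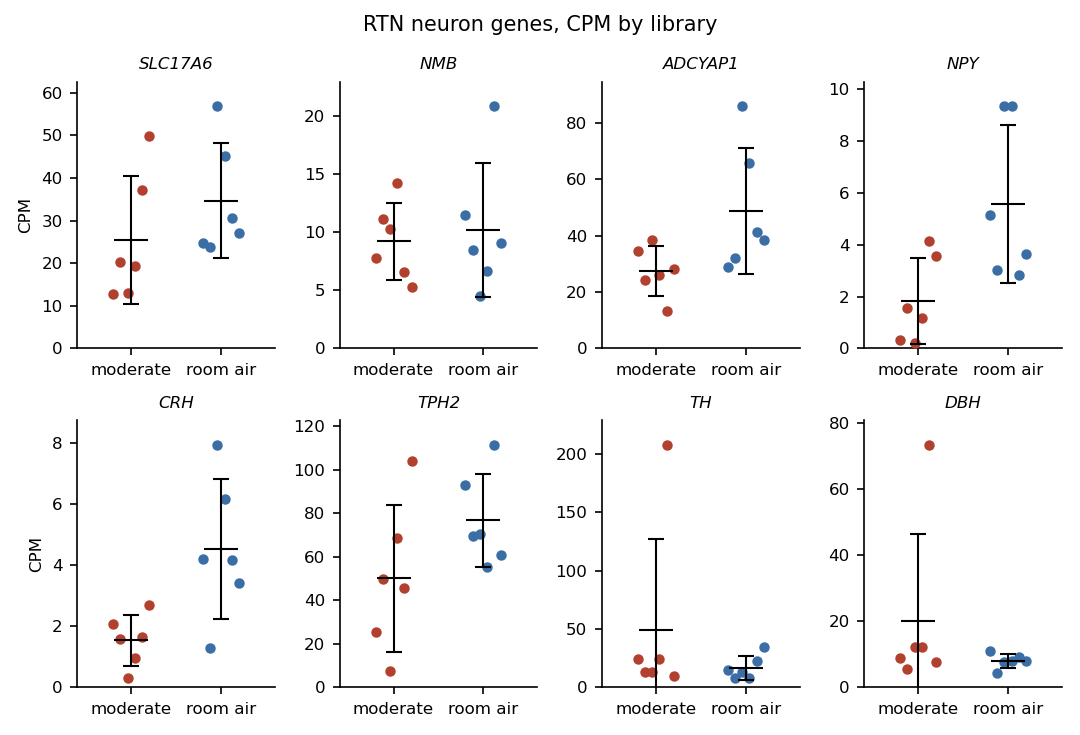
Level of 8 neuronal genes in each RTN library (CPM, y axis), moderate hypercapnia left and room air right; points are libraries, the long dash is the mean and the bars are 1 SD, drawn from 0 upward (n = 6 each). ADCYAP1, NPY and CRH lie lower in most moderate libraries, while TH and DBH are set by 1 moderate library at 208 and 73.3 CPM.

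The other genes of CO2 and acid sensing stood on both sides. Connexin 26 (GJB2) opens to CO2 and releases ATP, connexin 30 (GJB6) pairs with it in astrocytes, and Kir5.1 (KCNJ16) forms acid-sensitive channels with Kir4.1. Of 18 tested genes of proton and CO2 sensing 9 were higher, with a median log2 fold change of 0.05, and these 3 were at an unadjusted p under 0.05, all higher (16.7%). The median was -0.05 without moderate replicate 5, with 8 of 18 higher and 2 at an unadjusted p under 0.05. GJB6 had 156, 169.9 and 332 CPM in moderate libraries and 98.4, 111 and 180.5 CPM in room air libraries (log2 fold change 0.63 ± 0.22). Moderate replicate 5 held the 332 CPM, and without it the log2 fold change was 0.41 with edgeR adjusted p = 0.598. GJB2 had 5.55, 5.77 and 19.3 CPM in moderate libraries and 3.21, 4.88 and 7.05 CPM in room air libraries (log2 fold change 0.77 ± 0.31). Its highest value was again moderate replicate 5, and without that library the log2 fold change was 0.32 and not under the unadjusted 0.05 (edgeR adjusted p = 0.703). KCNJ16 had 51.9, 75.4 and 87.7 CPM in moderate libraries and 44.1, 58.0 and 63.5 CPM in room air libraries, and kept its log2 fold change of 0.40 ± 0.15 near 0.41 without replicate 5. KCNJ10, the gene of Kir4.1, had -0.17 with edgeR adjusted p = 0.791.

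Connexins and pannexins, with GJB2 and GJB6 counted again among them, stood on both sides. Of 11 tested genes 6 were higher, with a median of 0.01, which was -0.20 without moderate replicate 5. GJA1, connexin 43 of astrocytes, averaged 83.7 ± 14.0 CPM in moderate and 106 ± 8.88 CPM in room air RTN, and PANX1 averaged 14.6 ± 2.01 CPM in moderate and 17.9 ± 2.43 CPM in room air RTN. The enzymes and carriers that handle CO2 and bicarbonate showed no gene at an unadjusted p under 0.05. Of 14 carbonic anhydrase genes 9 were higher (median 0.04), the smallest p being that of CA14 at 0.16. Of 21 bicarbonate transporters and proton exchangers 12 were higher (median 0.02), the smallest p being that of the sodium bicarbonate cotransporter SLC4A4 (log2 fold change -0.27 ± 0.14, edgeR adjusted p = 0.689). Of 22 genes of purine and adenosine signalling 12 were higher (median 0.06). Only ADORA2B, the low-affinity adenosine receptor, was at an unadjusted p under 0.05, with 34.4, 39.1 and 52.5 CPM in moderate and 26.0, 28.1 and 39.5 CPM in room air RTN (log2 fold change 0.42 ± 0.14).

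Peptide genes tended to the lower side in moderate RTN, with 4 of 21 tested higher and a median log2 fold change of -0.26, which was -0.16 without room air replicate 1. The 4 at an unadjusted p under 0.05 (19.0%) were all lower: NPY, CRH, CARTPT and ADCYAP1. NPY, the gene of neuropeptide Y, had 0.213, 1.36 and 4.13 CPM in moderate libraries and 2.83, 4.40 and 9.36 CPM in room air libraries (log2 fold change -1.62 ± 0.57). CRH, the gene of corticotropin-releasing hormone, had 0.298, 1.62 and 2.68 CPM in moderate libraries and 1.30, 4.19 and 7.94 CPM in room air libraries (log2 fold change -1.55 ± 0.49). Both genes were low and overlapped between the groups. CARTPT, the gene of the CART peptide, averaged 42.2 ± 18.9 CPM in moderate and 81.5 ± 50.2 CPM in room air RTN (log2 fold change -0.95 ± 0.45). TRH, the gene of thyrotropin-releasing hormone, was chosen after its values were seen; it averaged 33.2 CPM in moderate and 84.5 CPM in room air RTN, with edgeR adjusted p = 0.718. Without moderate replicate 5, NPY and CRH had log2 fold changes of -2.05 and -1.57.

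Genes of serotonin neurons were also mostly lower, with 4 of 14 higher and a median of -0.31, and DDC, which makes serotonin and dopamine from their precursors, was at an unadjusted p under 0.05 (log2 fold change -0.48 ± 0.22). Without moderate replicate 3 the median was -0.20 and no gene of the list was at an unadjusted p under 0.05. TPH2, the rate-limiting enzyme of serotonin synthesis in the brain, was chosen after its values were seen. It had 7.31, 47.8 and 104 CPM in moderate libraries and 55.2, 70.1 and 111 CPM in room air libraries (log2 fold change -0.62 ± 0.40). The spread within the moderate group was larger than the difference between the means. TPH2 is itself part of the serotonergic sums given above, so those sums are no separate measure of it. How far differences in the dissected pieces enter the serotonin result was not tested. Catecholamine genes split, with 7 of 17 higher, a median of -0.03, and 2 at an unadjusted p under 0.05 on each side (23.5% together, against 7.38% of all genes). TH and DBH, which make noradrenaline, had log2 fold changes of 1.54 ± 0.73 and 1.31 ± 0.58, but these rested on moderate replicate 5, where they reached 208 and 73.3 CPM. Without it they were 0.03 and 0.21. ADRB1, the beta-1 adrenergic receptor, had -1.15 ± 0.45 at levels under 2 CPM.

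Cholinergic and motor neuron genes lay slightly higher, in 13 of 14 tested, with a median log2 fold change of 0.11 and none at an unadjusted p under 0.05, the smallest p being that of ISL2 at 0.228. That median was 0.03 without moderate replicate 3, with 9 of 14 higher, and 0.33 without moderate replicate 5. CHAT averaged 51.4 CPM in moderate and 39.2 CPM in room air RTN, with edgeR adjusted p = 0.861 (log2 fold change 0.39, and 0.61 without moderate replicate 5). Its levels ran from 9.43 to 84.87 CPM in moderate libraries and from 30.87 to 56.85 CPM in room air libraries. HOX genes, whose levels follow position along the hindbrain, were lower in 11 of 12 tested, with a median of -0.51, most at a few CPM or less. HOXA5 and HOXB5 were at an unadjusted p under 0.05 (log2 fold changes -0.87 ± 0.35 and -1.10 ± 0.47). Without moderate replicate 5 their p was 0.054 and 0.053 in edgeR.

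Channel, receptor and synapse genes were mixed. Of 26 sodium and calcium channel genes 10 were higher (median -0.09). At an unadjusted p under 0.05 were 3 (11.5%, against 7.38% of all genes): CACNA2D1, CACNB4 and the pacemaker channel HCN3. Their log2 fold changes were -0.48 ± 0.17, -0.42 ± 0.16 and -0.71 ± 0.28. Of 31 potassium channels 20 were higher (median 0.13, and 0.03 without moderate replicate 3). The 2 at an unadjusted p under 0.05, KCNJ2 and KCND3, were lower (log2 fold changes -0.85 ± 0.29 and -0.78 ± 0.35). That share, 6.45%, was below the 7.38% of all genes. Synaptic vesicle and plasticity genes were higher in 8 of 24 (median -0.07). Of these SYT1, the calcium sensor of transmitter release, had 19.1, 30.7 and 33.8 CPM in moderate libraries and 35.0, 39.1 and 61.5 CPM in room air libraries. Its groups did not overlap (log2 fold change -0.64 ± 0.24). BDNF averaged 4.68 ± 1.20 CPM in moderate and 6.56 ± 2.00 CPM in room air RTN (log2 fold change -0.49 ± 0.20). Glutamate genes (11 of 26 higher, median -0.03), GABA and glycine genes (9 of 15, median 0.06) and GABA-A receptor subunits (4 of 12, median -0.03) lay close to the median of all genes. None of the GABA, glycine and GABA-A receptor genes was at an unadjusted p under 0.05, and GABRD had the smallest p of the receptor subunits, 0.113. Immediate early genes, which mark recent neuronal activity, were higher in 10 of 24 (median -0.04) with none at an unadjusted p under 0.05, the smallest being that of FOSL2 at 0.059.

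**Figure D4:**
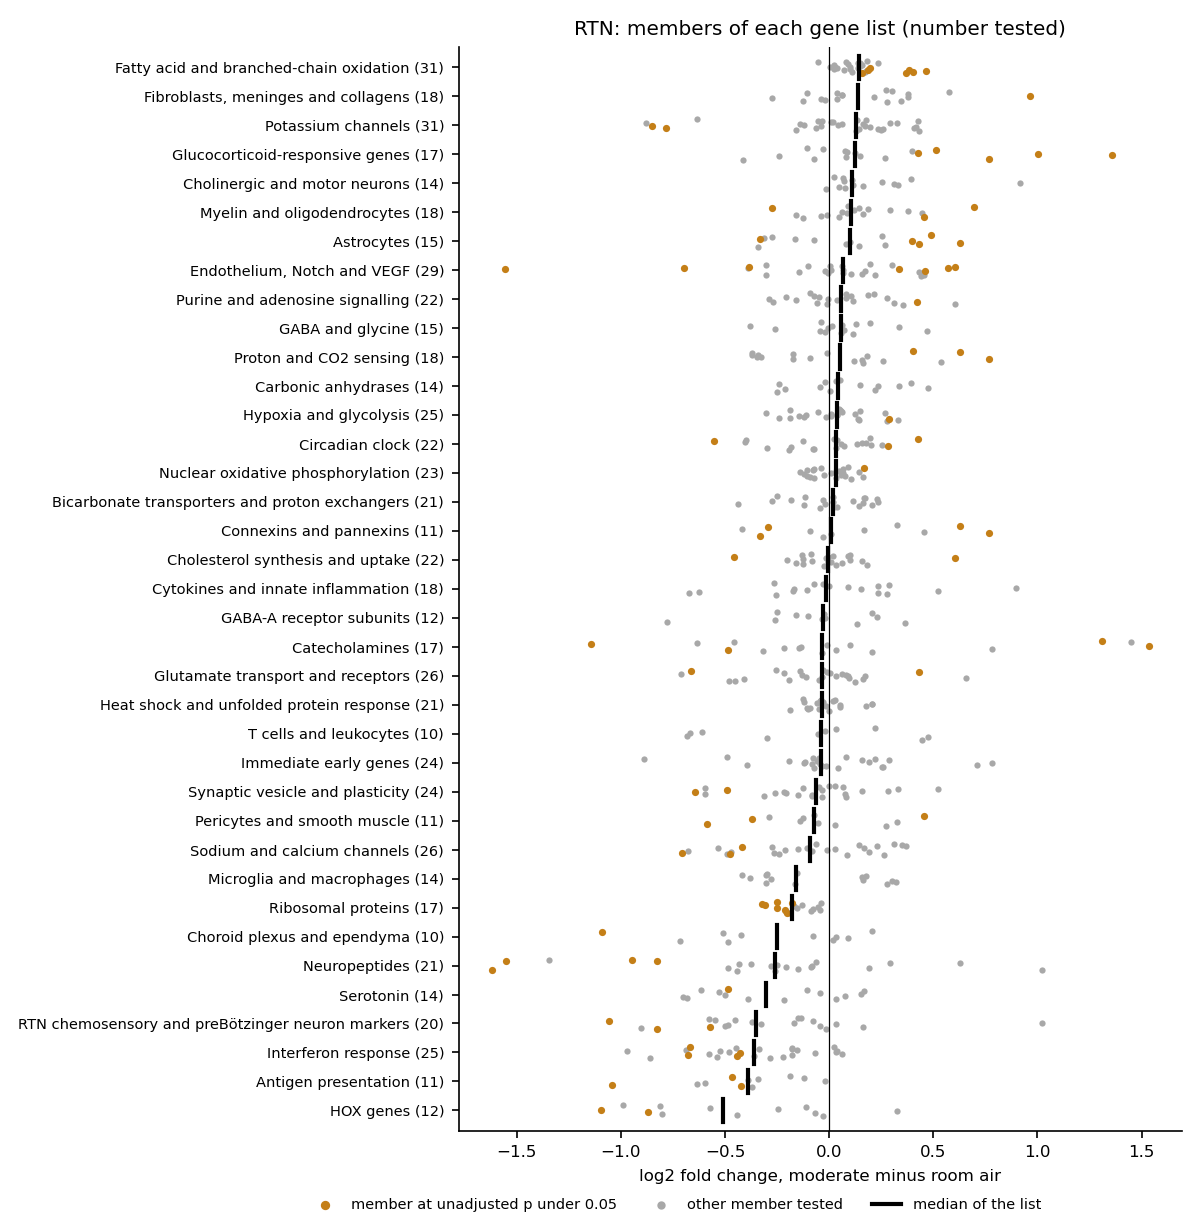
Log2 fold change (moderate minus room air, x axis) of each tested member of 37 gene lists, ordered by their medians (black bars); the number tested is in brackets. Orange points are members at an unadjusted p under 0.05; the oxidation list lies just right of 0, and ribosomal, interferon, antigen presentation and HOX lists lie left of it.

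Astrocyte genes stood on both sides, with 9 of 15 higher and a median of 0.10. At an unadjusted p under 0.05 were 5 of the 15 (33.3%), 4 higher, among them GJB6, ATP1B2 and SLC1A2, and GJA1 lower. Without moderate replicate 3 that count was 2. ATP1B2, a subunit of the sodium pump of astrocytes, had 184, 236 and 356 CPM in moderate libraries and 148, 168 and 220 CPM in room air libraries (log2 fold change 0.49 ± 0.15, and 0.35 without moderate replicate 5). SLC1A2, the main glutamate transporter of astrocytes, had 46.1, 52.8 and 63.6 CPM in moderate libraries and 28.0, 40.8 and 52.9 CPM in room air libraries (log2 fold change 0.43 ± 0.17). Both genes overlapped between the groups. The defining astrocyte markers GFAP, AQP4 and SLC1A3 summed to a median of 14560 CPM in moderate and 15150 CPM in room air RTN.

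Myelin genes were higher in 13 of 18 tested (median 0.11), but in 7 of 18 without moderate replicate 5 (median -0.03). OPALIN, a myelin membrane protein, was higher and ASPA, which breaks down N-acetylaspartate, lower (log2 fold changes 0.69 ± 0.29 and -0.27 ± 0.10). CSPG4, of oligodendrocyte precursors and pericytes, had 0.46 ± 0.19, and without moderate replicate 5 its p was 0.10 in edgeR. Cholesterol genes were balanced (10 of 22 higher, median -0.01), with LSS at 0.60 ± 0.21 and PMVK at -0.46 ± 0.15.

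Vessel genes stood on both sides. The endothelial markers CLDN5 and PECAM1 summed to a median of 250.4 CPM in moderate and 290.1 CPM in room air RTN. Of 29 tested genes of endothelium, Notch and VEGF signalling 19 were higher (median 0.07), and 7 were at an unadjusted p under 0.05, 4 higher and 3 lower (24.1%). ENG, a co-receptor for TGF-beta, had 71.1, 81.5 and 171 CPM in moderate libraries and 49.6, 65.7 and 74.6 CPM in room air libraries. PECAM1, an adhesion molecule of endothelium, averaged 50.9 ± 18.7 CPM in moderate and 37.0 ± 7.91 CPM in room air RTN. Moderate replicate 5 was the highest library for both, and without it their log2 fold changes of 0.57 and 0.46 were 0.32 and 0.24. DLL4, the Notch ligand of sprouting vessels, had 3.27, 4.54 and 8.67 CPM in moderate libraries and 4.26, 9.02 and 12.1 CPM in room air libraries (log2 fold change -0.70 ± 0.27). APOLD1, an early response gene of endothelium, had 0.744, 3.34 and 4.67 CPM in moderate libraries and 3.04, 4.74 and 24.3 CPM in room air libraries (log2 fold change -1.56 ± 0.50). The list had 1 gene higher and 3 lower at an unadjusted p under 0.05 without moderate replicate 5 (median 0.01), and 1 higher and 2 lower without room air replicate 4. Pericyte and smooth muscle genes were higher in 4 of 11 (median -0.07), but in 7 of 11 without room air replicate 1 (median 0.16). ABCC9, a subunit of pericyte potassium channels, and MYH11, smooth muscle myosin, had log2 fold changes of -0.59 ± 0.25 and -0.37 ± 0.17. MYH11 was highest in room air replicate 1, and without it had -0.18 ± 0.13. Fibroblast and collagen genes were higher in 13 of 18 (median 0.14, and 0.05 without moderate replicate 5), with COL6A3 at 0.97 ± 0.34, and choroid plexus and ependymal genes in 4 of 10 (median -0.25, and 0.06 without room air replicate 5), with KL at -1.09 ± 0.37.

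Most antigen presentation and interferon genes were on the lower side in moderate RTN, and none was called. All 11 tested genes of antigen presentation were lower, with a median log2 fold change of -0.39, and 3 were at an unadjusted p under 0.05 (27.3%): HLA-DOB, HLA-DOA and HLA-DMA, which regulate peptide loading of class II molecules. These values leaned on room air replicate 1: without it 9 of 11 were lower, the median was -0.16 and 0 were at an unadjusted p under 0.05. HLA-DMA averaged 9.29 ± 2.36 CPM in moderate and 12.9 ± 4.58 CPM in room air RTN (log2 fold change -0.47 ± 0.22). The goat class II gene CAHI-DQA2 (ENSCHIG00000010572, chromosome 23) had 1.998, 8.78 and 24.1 CPM in moderate libraries and 9.89, 33.8 and 99.9 CPM in room air libraries. It ran over a wide range within each group, and the groups overlapped (log2 fold change -2.12 ± 0.55, edgeR adjusted p = 0.461). On the same chromosome, ENSCHIG00000012657 and ENSCHIG00000018938 (the second named after its values were seen) have no symbol in the table and had log2 fold changes of -2.62 ± 0.53 and -1.69 ± 0.40. Of 434 tested genes on chromosome 23, 47 were at an unadjusted p under 0.05 (10.8%, against 7.38% of all genes). Of these, 28 were lower and 19 higher, and over all genes 553 of 1132 were lower. The counting of reads from near-identical histocompatibility genes and alleles is not stated, so single values of this family are uncertain.

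Interferon response genes were higher in 4 of 25 tested (median -0.36), and the 4 at an unadjusted p under 0.05 (16%) were lower. Without room air replicate 4 that count was 1, with 21 of 25 again lower and a median of -0.28. ISG15, a ubiquitin-like protein, had 12.7, 17.2 and 24.3 CPM in moderate libraries and 15.3, 29.6 and 47.3 CPM in room air libraries (log2 fold change -0.68 ± 0.27). IFIT1, which binds foreign RNA, MX1, an antiviral GTPase, and USP18, which removes ISG15, had -0.67 ± 0.26, -0.43 ± 0.19 and -0.44 ± 0.16. The groups overlapped in all 4. Microglia and leukocyte genes held none at an unadjusted p under 0.05: microglia and macrophage genes were higher in 6 of 14 (median -0.16), the smallest p being that of CX3CR1 at 0.093, T cell and leukocyte genes in 4 of 10 (median -0.04, the smallest p being 0.095 for CD3D) and cytokine genes in 9 of 18 (median -0.01, the smallest p being 0.054 for IL1A). The microglial markers CX3CR1, P2RY12 and TMEM119 summed to a median of 75.6 CPM in moderate and 66.95 CPM in room air RTN. Without moderate replicate 5 the microglial list had 4 genes at an unadjusted p under 0.05, all lower, while without room air replicate 1 it had 8 of 14 higher and a median of 0.12. The T cell and leukocyte median was 0.17 without that library.

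Ribosomal protein genes lay slightly lower. None of the 17 tested was higher, the median was -0.18, and 7 were at an unadjusted p under 0.05 (41.2%). Without room air replicate 1 the median was -0.11, with 1 of 17 higher and 1 at an unadjusted p under 0.05. RPL37 had 52.9, 63.2 and 64.1 CPM in moderate libraries and 63.4, 71.5 and 103 CPM in room air libraries (log2 fold change -0.31 ± 0.11, and -0.20 without room air replicate 1). RPS14 and RPSA had -0.25 ± 0.09 and -0.33 ± 0.13. The ranges of the groups overlapped in these 3 genes, and counts of ribosomal protein genes are uncertain because processed copies can share their reads. Heat shock and unfolded protein genes were higher in 7 of 21 (median -0.03), the smallest p being that of CRYAB at 0.062. Only 2 erythroid and platelet genes were tested, both lower (median -0.17). HBQ1, a globin named after its values were seen, lay below every room air library in all moderate libraries, at 3.33 ± 0.918 CPM in moderate and 6.22 ± 1.42 CPM in room air RTN (log2 fold change -0.91 ± 0.21).

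Mild hypercapnia was set beside moderate hypercapnia for the leading genes, with the same room air libraries serving both comparisons. Against room air edgeR called 0 of 15343 genes in mild RTN as well, with 1011 at an unadjusted p under 0.05 (6.59%). Log2 fold changes in mild and moderate RTN were 0.60 and 0.94 for PAQR5, 0.69 and 1.00 for ANGPTL4, 0.30 and 0.40 for ACADS, 0.26 and 0.31 for PIGS, and -0.59 and -0.68 for LDH-A. They were 0.11 and 0.37 for IVD, 0.10 and 0.38 for HADHB, -0.18 and -0.73 for HYI, and 0.37 and 1.36 for FKBP5. The list medians in mild and moderate RTN were 0.41 and -0.39 for antigen presentation, 0.10 and -0.18 for ribosomal proteins, 0.18 and -0.36 for interferon response, and 0.01 and 0.14 for the oxidation list.

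The direct test of moderate against mild hypercapnia called 0 of 15343 genes with edgeR, with 1620 at an unadjusted p under 0.05 (10.6%), 684 higher (4.46%) and 936 lower (6.1%), and DESeq2 called 128. Without mild replicate 1, edgeR called 1 gene, MTMR10 (log2 fold change 0.85). The 5 genes with a symbol of smallest p were all lower in moderate RTN. HLA-DOB averaged 11.1 ± 2.31 CPM in moderate and 19.7 ± 2.61 CPM in mild RTN (log2 fold change -0.83 ± 0.17, edgeR adjusted p = 0.175). SNRPD2, of the splicing machinery, MRPS14, of the mitochondrial ribosome, RPS7, of the cytosolic ribosome, and SEC61G, of the protein translocation channel, had log2 fold changes between -0.36 and -0.45. Among the metabolic genes, IVD and HADHB had moderate minus mild differences of 0.26 and 0.28, with edgeR adjusted p = 0.211 and adjusted p = 0.289. HIF1A had 0.45 with edgeR adjusted p = 0.196.

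The response to moderate hypercapnia in the RTN was tested against the mean response of the NTS, VRC and mPFC. edgeR called 0 of 16372 genes, with 562 at an unadjusted p under 0.05 (3.43%), so no response was shown to differ between the RTN and the other regions with edgeR. DESeq2 called 2 genes in this test, MCOLN3 and SPAG6, with adjusted p of 1.37e-09 and 0.0032. Their DESeq2 log2 fold changes, RTN minus the other regions, were extreme, at -17.1 and -7.87. No other fit of this test called a gene, and the levels of these 2 genes are not given here. Moderate against room air called 0 genes in the VRC and the mPFC, and 1 of 15418 in the NTS (0.00649%), the endothelial gene THSD1. ADCYAP1 was among the 5 genes with a symbol of smallest p, at 8.0e-04 in edgeR. Its log2 fold change was -0.83 ± 0.27 in the RTN, 1.01 ± 0.43 in the NTS, 0.80 ± 0.36 in the VRC and 0.15 ± 0.21 in the mPFC (adjusted p of the difference = 1.00). CHAD, a cartilage matrix protein that had the smallest p, rested on moderate replicate 5, where it had 196 CPM against 8.72 to 14.1 CPM in the other moderate libraries. KCTD5, LRRC23 and MYO5C were the other 3, with RTN log2 fold changes of 0.40, -1.84 and 1.95, the last 2 at levels under 2 CPM. SYT1, BDNF and ATP1B2 had p between 0.0031 and 0.0050 in this test.

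**Figure D5:**
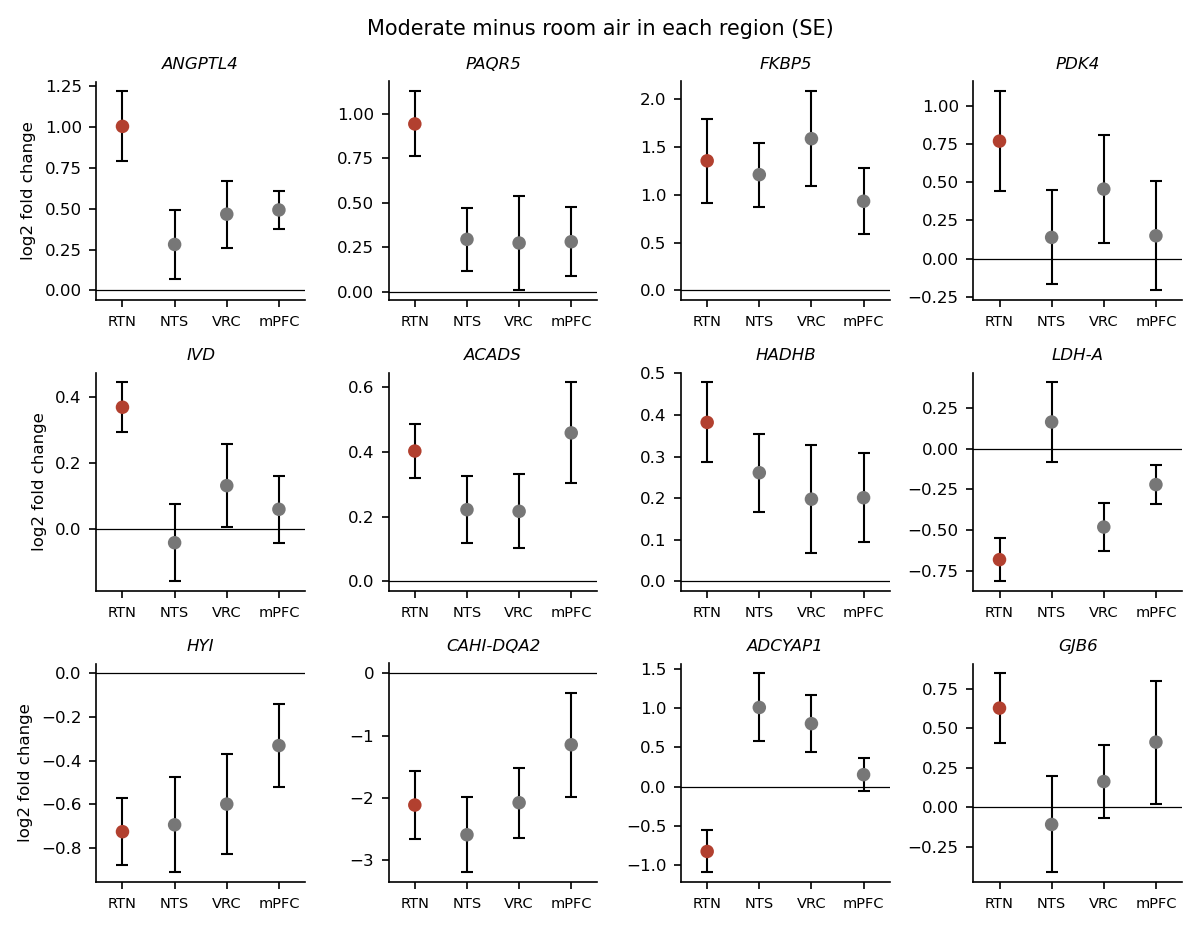
Log2 fold change of moderate hypercapnia minus room air (y axis, bars are SE) in the RTN (red) and in the NTS, VRC and mPFC (grey) for 12 genes, on a separate scale for each gene. FKBP5 is above 0 and HYI and CAHI-DQA2 below 0 in all 4 regions; ADCYAP1 is below 0 in the RTN and above 0 in the other 3.

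Some of the leading genes had the same sign in every region. FKBP5 had log2 fold changes of 1.36 in the RTN, 1.21 in the NTS, 1.59 in the VRC and 0.93 in the mPFC. ANGPTL4 had 1.00 in the RTN and between 0.28 and 0.49 in the other 3 regions, a difference with an edgeR p of 0.0096 before adjustment that was not called (adjusted p = 1.00). HYI, CAHI-DQA2 and ENSCHIG00000012657 were below 0 in all 4 regions, the last with -2.62 in the RTN, -2.91 in the NTS, -2.14 in the VRC and -2.09 in the mPFC. The library numbers may mark animals, so the same animals may stand behind these 4 values, and the labels do not say so. IVD stood at 0.37 in the RTN against -0.04 in the NTS, 0.13 in the VRC and 0.06 in the mPFC (a difference not called, at an unadjusted p of 0.010), and LDH-A at -0.68 against 0.16, -0.48 and -0.22 (also not called, at an unadjusted p of 0.020). Ribosomal protein genes had medians of -0.18 in the RTN, -0.40 in the NTS, -0.03 in the VRC and 0.27 in the mPFC, and antigen presentation genes -0.39, -0.86, -0.49 and 0.07. The oxidation list had medians of 0.14 in the RTN, 0.12 in the NTS, 0.11 in the VRC and 0.06 in the mPFC. Its median thus lay above 0 in all 4 regions.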

How the data were processed

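RNA was sequenced from the RTN, NTS, VRC and mPFC in 12 groups of 6 libraries, 72 in all. The deposited table holds counts, whole numbers of reads per gene for 21343 genes, which the authors made with FastQC, Trimmomatic, STAR and featureCounts, per the submitters' processing notes, which also name edgeR. The sources used here do not give versions, genome build, strand setting or how reads shared by several genes were counted. RPKM values stand beside the counts in the deposited file. They imply library sizes of 1.0047 to 1.0069 times the count sum and were used here only for levels between regions. A length column, of the unit other, gives the deposited gene model length in bases. A symbol is missing for 6643 genes, and no gene ID could be matched to a reference table.

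The 18 RTN libraries (moderate, mild, room air) were fitted together on the counts with edgeR 4.0.16 in R 4.3.3. Low genes were removed by filterByExpr (minimum count 10), libraries were scaled by TMM, and the quasi-likelihood F-test was used with Benjamini-Hochberg adjustment at 0.05 over all genes tested. The response of the RTN minus the mean response of the other 3 regions used all 72 libraries as if independent. DESeq2 1.42.0, limma 3.58.1 with quality weights, RLE factors, no filter, a replicate block, the 2 groups alone, a myelin covariate and leaving out each library were the alternatives. The tests were run on simulated counts first.

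The members, gene lists and tests were chosen with earlier results of these data known, and the oxidation list was made after IVD, ACADS and HADHB had been seen. Gene lists are given by counts and medians, with no test. Named genes were, in each direction, the 12 of smallest p with a symbol and a mean of at least 5 CPM, those of smallest p that DESeq2 called, up to 4 members of each list at an unadjusted p under 0.05 (or else the 1 of smallest p), the RTN markers, and the 5 of smallest p in each further test; a few of these are not reported here. DECR1, VEGFA, SLC2A1, NR3C1, KCNJ10 and CHAT were added after their values were seen, as were the genes for which the text says so. Pairs of libraries within a group differed beyond counting noise (chi-square over its degrees of freedom of 16.8 to 159 in 30 pairs). Totals of 13774272 to 31884742 counts per RTN library leave genes under 1 CPM with the largest counting error.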

Additional observations from a re-analysis of the deposited data

Results flagged for a closer look

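The values below are single libraries that stood apart from the other 5 of their group by Dixon's criterion. Chance gives about 1 such library in 20 groups, and 35 of 340 groups of values had one (10.3%). Of these, 18 were moderate replicate 5 and 6 were room air replicate 1.

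Moderate replicate 5 was high for genes of catecholamine neurons, vessels, astrocytes and matrix. It had 207.7 CPM of TH, 73.3 CPM of DBH and 196.2 CPM of CHAD, against at most 24.7, 12.2 and 14.1 CPM in the other moderate libraries. It also had 171.1 CPM of ENG, 332 CPM of GJB6, 19.3 CPM of GJB2, 52.5 CPM of ADORA2B, 14.7 CPM of CSPG4, 690.6 CPM of SLC2A1, 15.6 CPM of HLA-DOB, 1193 CPM of CRYAB, 27.1 CPM of SLC19A3 and 4753 CPM of TUBB4A, each the highest of its group. Its list levels, the median over members of log2 CPM minus the room air mean of each gene, were 0.765 for endothelium, 0.377 for immediate early genes and 0.287 for the circadian clock. They were -0.423 for synaptic genes and -0.193 for bicarbonate transporters and proton exchangers.

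Other moderate libraries stood apart in 4 genes. FKBP5 had 118.2 CPM in replicate 3, where GABRD was low at 1.1 CPM. ACADS was low in replicate 4 at 52.5 CPM, still above every room air library, and HADHB was high in replicate 6 at 303.7 CPM.

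Among the room air libraries, replicate 1 was low for HADHA at 159.2 CPM and for HIF1A at 138.1 CPM. It was high for MYH11 at 92.6 CPM and RPL37 at 102.8 CPM, with list levels of 0.738 for pericytes and smooth muscle and -0.351 for GABA-A receptor subunits. Replicate 2 was low for SLC19A3 at 5.82 CPM. Replicate 3 was high for HCN3 at 20.5 CPM. Replicate 4 was low for ANGPTL4 at 5.68 CPM and for FOSL2 at 0.546 CPM. Replicate 6 was low for CD3D at 0.285 CPM and for TUBB4A at 2566 CPM and had a list level of 0.425 for immediate early genes.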

How the results depend on the processing

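The count of 0 genes called for moderate against room air also held with RLE factors, no filter, limma with quality weights, the 2 groups alone and a myelin covariate. DESeq2 called 26. Leaving out single libraries gave 0 to 1 calls, the 1 being ENSCHIG00000019618. Genes at an unadjusted p under 0.05 numbered 929 to 1340 without single libraries. In fits chosen after seeing the data there were 1740 without moderate replicates 5 and 6 together and 1207 in edgeR's newer quasi-likelihood form. Moderate against mild gave 128 calls with DESeq2 and 0 to 1 without single libraries, and the response of the RTN minus the other regions gave 2 with DESeq2 and 0 under every other alternative run. The cause of these differences was not tested.

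Same-numbered moderate and room air libraries did not deviate together (r from -0.161 to 0.0376 over 6 pairs, 0 over 0.1), so the numbers were not read as pairing them. With the number as a replicate block 0 genes were called for moderate against room air, with 1041 at an unadjusted p under 0.05, and 0 for moderate against mild. In the test across regions, a block of condition and number read as 1 animal called 0 genes; such libraries deviated together, with a median r of 0.244 over 36 pairs.

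Of 2750 values of 131 named genes under 21 alternatives, 2741 kept their sign. The others were those of NMB (0.12 with limma, 0.084 without moderate replicates 5 and 6, -0.31 to 0.19 without single libraries), GPR4 (-0.037 with limma, -0.036 with the myelin covariate, -0.18 without replicates 5 and 6, -0.057 to 0.28 without single libraries) and DECR1 (-0.17 to 0.015 without single libraries). Of 798 list medians 794 moved by less than 1 SD between libraries. The others were those of proton and CO2 sensing (-0.06, -0.05 and -0.07 with the myelin covariate, without moderate replicate 5 and without replicates 5 and 6) and of choroid plexus (0.06 without room air replicate 5). Without each single library in turn, 23 of 38 list medians kept their sign. Depth limits the genes under 1 CPM most.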

Other observations

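The 63 genes whose groups did not overlap (0.411% of those tested) belonged to many functions. Those named here were chosen after their values were seen, and none was called by edgeR. SLC19A3, a thiamine transporter, lay between 14.5 and 27.1 CPM in moderate libraries and between 5.82 and 11.2 CPM in room air libraries (log2 fold change 0.83 ± 0.21). COQ9, needed to make coenzyme Q, lay between 55.6 and 73.0 CPM in moderate libraries and between 49.6 and 55.0 CPM in room air libraries. ALAS1, the first enzyme of haem synthesis, lay between 179 and 218 CPM in moderate libraries and between 164 and 178 CPM in room air libraries. These 2 differences were small (log2 fold changes 0.24 ± 0.07 and 0.18 ± 0.06).

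TUBB4A, a tubulin of oligodendrocytes and neurons, lay between 3622 and 4753 CPM in moderate libraries and between 2566 and 3436 CPM in room air libraries (log2 fold change 0.30 ± 0.11). On the lower side, CADM1, a synaptic adhesion molecule, had a log2 fold change of -0.24 ± 0.07. RPL31, a ribosomal protein, had a log2 fold change of -0.33 ± 0.10.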
